A study of Homo sapiens with 18 samples.

Results

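The regions described here are the 4040 windows called in anti-GFP ChIP-seq of MCF10A cells whose A3B-eGFP transgene had not been induced, and each is called a member below. Every window of that list was taken, out of 774635 windows in the 9 lists of the series on chromosomes 1 to 22 and X. The members were chosen by their −log10 q value against input, so their own enrichment, pileup, q value and placement are given as a description with no test. What the choice did not use is whether they recurred in the other 8 lists, how often their sequence occurs in the genome, and which genes they overlap. The weakest members passed the submitters' q-value limit narrowly, with −log10 q of 2.005, 2.008 and 2.008, and windows just outside that limit are not in the list.

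MCF10A is an immortalised, non-tumorigenic human breast epithelial line, and A3B (APOBEC3B) is a nuclear enzyme that deaminates cytosine in single-stranded DNA. The study mapped A3B-eGFP with an anti-GFP antibody and mapped R-loops, hybrids of RNA with DNA, by DRIP-seq with the S9.6 antibody. The 3 anti-GFP libraries all came from TREx-A3B-eGFP cells, which carry the inducible fusion whether or not it is switched on. The uninduced cells received DMSO, the first induced cells received DMSO and were induced for 24 h by 1 µg/ml doxycycline, and the second induced cells had the same induction and the phorbol ester PMA at 25 ng/ml for 2 h. The 6 DRIP lists came from MCF10A cells without the fusion, either wild-type (WT) or APOBEC3B knockout (KO), given DMSO, or PMA at 25 ng/ml for 2 h or for 6 h. The KO line was cloned from a cell cut by a guide that matches both APOBEC3A and APOBEC3B, so it stands for 1 clone. The study describes a deletion allele of APOBEC3B that leaves a fusion of these neighbouring genes. No list of uninduced cells given PMA was analysed here. Each list came from 1 library called against its own input, and immunoprecipitations were pooled before sequencing, so no difference between conditions could be tested against replicate error. Intervals below are 95% Wilson intervals that cover counting error only, and neighbouring windows of 1 locus are not independent, so the intervals are too narrow. The lists give no read totals, so library depth is not stated, and a window missing from a list may lie just under its limit. No member overlapped any of 18 genes that mark basal breast cells, 12 luminal genes or 9 genes of other lineages. As members overlapped 314 of 20033 protein-coding genes (1.57%), this absence says little. The doxycycline and DMSO list overlapped 13, 1 and 0 of these markers, and the doxycycline and PMA list 9, 1 and 1. WT DMSO DRIP windows overlapped 18, 7 and 1. Of the protein-coding genes, these 3 lists overlapped 1812, 1466 and 13541.

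An anti-GFP immunoprecipitation without the induced fusion shows where fragments are recovered when little or none of the intended target is present. In short-read maps such recovery is known to gather at sequence that exists in more copies than the reference shows: segmental duplications, which are long stretches of nearly identical DNA, tandem satellites beside centromeres, telomere repeats, and the arrays of ribosomal RNA genes. Segmental duplications also hold young gene families, many of them immune receptors, placental and germline genes, that vary in copy number between people. Whether copy number moved with the windows below was not tested.

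The sequences below show the kinds of DNA the members held, read from hg38. The first lies in the member with the largest pileup, on the plus strand at chr16:46389837-46390076. Capitals mark each GGAAT or ATTCC, the unit of human satellites 2 and 3, and it held 14 such units.
Satellite of chromosome 16: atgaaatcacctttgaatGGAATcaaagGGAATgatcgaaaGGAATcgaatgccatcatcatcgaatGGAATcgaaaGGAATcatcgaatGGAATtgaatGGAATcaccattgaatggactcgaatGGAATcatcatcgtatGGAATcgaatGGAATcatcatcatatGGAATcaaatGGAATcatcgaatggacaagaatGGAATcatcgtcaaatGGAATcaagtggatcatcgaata
The next pairs show 150 bases of a member and of a further copy, with the bases that differ in capitals. Each copy is the closest that was not identical and aligned without gaps over the whole window on an assembled chromosome. The 150 bases are a stretch of the window with the most differing bases. The first pair is a member that overlaps POLR2J3 and SPDYE2 at chr7:102559611-102559760 and its copy in SPDYE6 at chr7:102349519-102349668 on the minus strand, 99.8% identical over the window. The second is a member among the pregnancy-specific glycoprotein (PSG) genes at chr19:42958734-42958883 and its copy at chr19:43054727-43054876, 97.8% identical, and that copy overlaps another member. The other is a member in UGT2B28 at chr4:69290669-69290818 and its copy in UGT2B25P at chr4:69399609-69399758, the least alike of the 3 pairs at 93.6%.
POLR2J3 region, member: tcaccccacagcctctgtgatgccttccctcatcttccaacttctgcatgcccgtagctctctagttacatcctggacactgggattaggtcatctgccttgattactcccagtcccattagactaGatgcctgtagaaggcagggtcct
POLR2J3 region, copy: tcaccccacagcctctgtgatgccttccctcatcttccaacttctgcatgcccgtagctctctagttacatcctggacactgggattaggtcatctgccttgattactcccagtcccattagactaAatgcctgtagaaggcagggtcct
PSG region, member: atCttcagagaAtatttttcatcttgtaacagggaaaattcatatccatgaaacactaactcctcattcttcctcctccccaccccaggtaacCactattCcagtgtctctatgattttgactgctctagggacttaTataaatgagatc
PSG region, copy: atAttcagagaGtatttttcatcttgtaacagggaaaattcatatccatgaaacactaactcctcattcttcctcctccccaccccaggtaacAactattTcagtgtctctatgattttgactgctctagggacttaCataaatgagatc
UGT2B28, member: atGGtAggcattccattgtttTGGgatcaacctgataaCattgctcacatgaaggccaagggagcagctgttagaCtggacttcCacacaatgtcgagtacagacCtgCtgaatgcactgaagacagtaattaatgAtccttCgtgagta
UGT2B25P, copy: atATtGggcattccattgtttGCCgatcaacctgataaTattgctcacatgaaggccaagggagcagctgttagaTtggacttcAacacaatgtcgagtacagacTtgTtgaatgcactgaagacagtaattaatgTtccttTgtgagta

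The members were spread very unevenly over the chromosomes. Chromosome 1 held 879 of them (21.8%), chromosome 16 held 502 (12.4%), chromosome 19 held 380, chromosome 15 held 328 and chromosome 7 held 287. Those 5 chromosomes held 58.8% of the members and 20.9% of a regular grid of 500 bp windows placed every 10 kb along the sequenced genome, which is used as the background below. The first 20 Mb of chromosome 1 alone held 537 members (13.3%), against 0.671% of the grid. Per megabase, chromosome 19 had 6.48 members, chromosome 16 had 5.56 and chromosome 1 had 3.53, while chromosome 20 had 0.0931. None of the 3 anti-GFP lists had a window on chromosome Y, which makes up 0.897% of the grid. Chromosome 17 carried 2.96 members per Mb, but 7.42 windows per Mb in the doxycycline and DMSO list and 8.26 in the doxycycline and PMA list. These lists were longer, at 5945 and 7122 windows, so densities per Mb are not adjusted for length. As shares of each list, chromosome 17 held 6.09% of members and 10.4% and 9.66% of the induced windows. For chromosome 20 the 2 induced lists had 1.29 and 2.17 windows per Mb, and the shares were 0.149% of members and 1.40% and 1.97% of the induced windows.

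The members lay in dense runs. The median distance from the start of a member to the next on its chromosome was 1256 bp (quartiles 647 and 2700 bp). When members no more than 10 kb apart were joined they formed 418 clusters, of which 118 held at least 5 members. Those 118 clusters took 3617 members, 89.5% (88.6 to 90.4%), within 5.77 Mb of sequence. In the lists with doxycycline the same joining put 51.5% and 67.1% of windows in clusters of at least 5. Only 224 members stood alone, and the 10 largest clusters together held 1322 (32.7%).

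The largest cluster, with 203 members over chr7:102484433-102668600, runs through RASA4B, POLR2J3, SPDYE2, UPK3BL1, RASA4 and POLR2J2, which encode Ras GTPase-activating proteins, copies of an RNA polymerase II subunit, Speedy family cell-cycle regulators and uroplakin-like proteins. The next, with 196 members over chr14:105564318-105766190, covers the constant-region genes of the immunoglobulin heavy chain, among them IGHG4, IGHG2, IGHE and IGHA2. The cluster of 146 members at chr16:29385740-29542364 holds NPIPB11, NPIPB12, SLX1B and SULT1A4, where NPIP genes are the core of the chromosome 16 duplications, SLX1B is a structure-specific endonuclease and SULT1A4 a phenol sulfotransferase. The PSG genes on chromosome 19, whose secreted products come from the placenta, held adjacent clusters of 125 and 116 members. The cluster of 123 at chr17:19061746-19214250 spans GRAPL and the SNORD3 genes for U3, the small nucleolar RNA needed to process pre-rRNA. The start of chromosome 1, with the olfactory receptor gene OR4F5 and the WASH7P pseudogene, held 110 members, and the ribosomal RNA gene region of chromosome 21 at chr21:8336632-8470699 held 104. The FCGR2C and FCGR3 genes for IgG receptors on chromosome 1 held 101, and the palmitoyltransferase genes ZDHHC11 and ZDHHC11B on chromosome 5 held 98.

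Fold and pileup differed between clusters. The RASA4 cluster had a median fold enrichment over the local background of 5.46 (range 2.24 to 17.7) and a median pileup of 57 fragments at the summit. The 2 PSG clusters had medians of 4.44 and 3.93 fold at pileups of 23 and 17 fragments. The 64 members of the satellite cluster at chr4:49092606-49153550, which holds no gene, had a median of 8.90 fold, the largest fold of all members at 26.0, and a median pileup of 130 fragments. The 30 members of the satellite cluster at chr16:46385679-46411991 had a median pileup of 783 fragments but a median of 3.65 fold, since the local background implied there, from the pileup and the fold, had a median of 161 fragments. The highest pileup, 1824 fragments, came from that cluster with a fold of 1.87, so the tallest window was among the least enriched relative to its surroundings.

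Over all members the median fold enrichment was 4.12 (quartiles 3.41 and 5.51, range 1.39 to 26.0), and the median pileup was 25 fragments (range 12 to 1824). For 783 members (19.4%) the local background was at its lowest value, 2.73 fragments, which is the genome-wide level the caller falls back on. The local background was at least 10 times that level for 182 members (4.51%). The 104 members of the larger chromosome 21 ribosomal cluster ranged from 1.80 to 25.1 fold at a median pileup of 224.5 fragments. At least 10-fold enrichment was reached by 165 members.

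**Figure D1:**
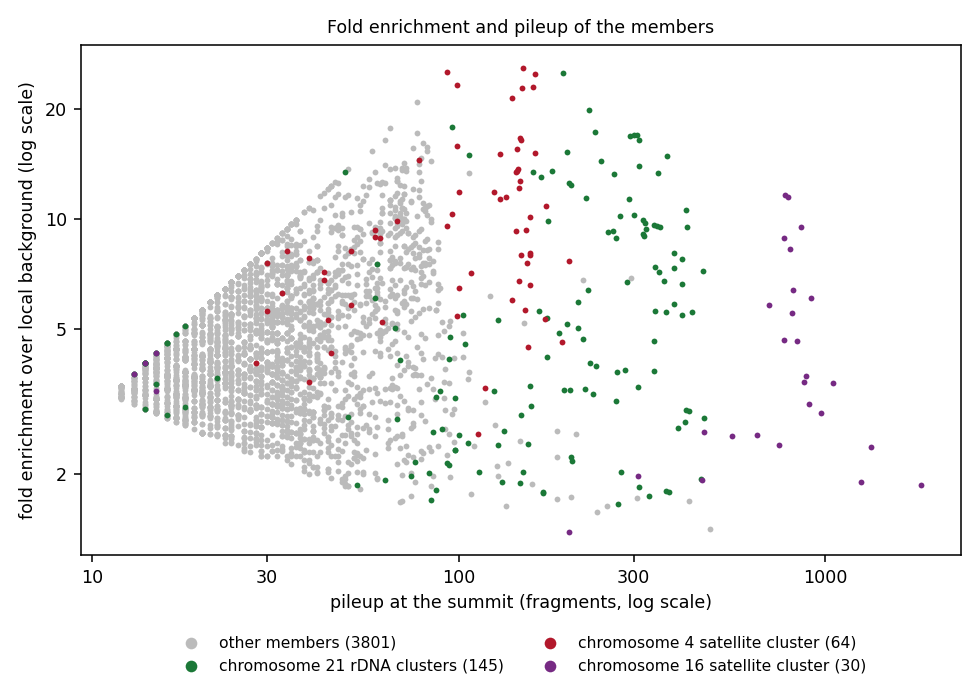
Fold enrichment (vertical, log scale) against pileup at the summit in fragments (horizontal, log scale) for each of the 4040 members, with 2 chromosome 21 ribosomal DNA clusters (145 members, green), the chromosome 4 satellite cluster (64, red) and the chromosome 16 satellite cluster (30, purple) marked. The chromosome 4 windows reach the top of the fold scale and the chromosome 16 windows the right end of the pileup scale at low fold.

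Most members lay in sequence that the reference holds more than once. A further copy, at 90% identity or more over at least 80% of the window, was found for 3537 members, 87.5% (86.5 to 88.5%), against 12.9% of grid windows. The same search found a copy for 42.0% of windows in the doxycycline and DMSO list, 35.6% in the doxycycline and PMA list and 10.5% in the WT DMSO DRIP list. At 98% identity or more the shares were 65.4% of members and 7.60% of grid windows. There was 1 further copy for 1080 members, 2 to 9 copies for 1794 and 10 or more for 663. When only assembled chromosomes were searched, so that alternate versions of the same locus did not count, the members' share was 80.6%. In the IGHG4 cluster, for instance, the most frequent place of the copy was such an alternate version.

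The copies were close and near-identical. The best copy had a median identity of 99.6% (quartiles 97.97 and 100%), and 1272 members (36.0%) had an identical copy. Of the 3537 members with a copy, 3181 (89.9%) had one on the same chromosome and 2958 (83.6%) had one within 1 Mb. The place of a copy overlapped another member for 1401 (39.6%). Among the 1080 members with exactly 1 copy that share was 21.3%. Places outside the assembled chromosomes, where no member lay, were counted as copies, which lowers both shares. A copy on an assembled chromosome was found for 3255 members. The PSG clusters were the least alike of the 10 largest, with a copy at 98% identity for 8 of 125 and 7 of 116 members, although 122 and 115 had one at 90%. Of the 118 clusters of at least 5 members, 76 had a copy for every member and 3 had none for any.

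The 503 members with no further copy were mostly neighbours of copied ones, since 300 of them lay in a cluster of at least 5 that also held a copied member, and 127 stood alone. Short tandem satellites are poorly found by this search, and 30 of the 64 chromosome 4 satellite windows had no copy by it. A few gene clusters had few copies. The YY1AP1 cluster on chromosome 1, named for a regulator that associates with the factor YY1, had a copy for 2 of 23 members, the neighbouring cluster of DAP3, a mitochondrial ribosomal protein, had one for 8 of 21, and the cluster of SLC2A14, a glucose transporter, had one for 5 of 26.

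Members overlapped 642 of 62663 annotated genes (1.02%), and 157 genes held at least 5 members. The genes with the most were PSG11-AS1, a long non-coding RNA gene that runs through the PSG genes, with 118, and CROCC with 112. The annotated span of CROCC also holds other genes. ZDHHC11B held 58, RASA4 held 41, POLR2J3 held 40, and EIF3C, a subunit of a translation initiation factor, held 36. Protein-coding genes overlapped 38.4% of members and 44.7% of grid windows, long non-coding RNA genes 30.2% and 18.8%, and pseudogenes 10.2% and 1.99%. An exon was overlapped by 22.6% of members (grid 10.1%), while 43.2% lay in a gene without touching an exon and 34.2% lay outside genes. The start of a protein-coding gene lay within 2 kb for 7.97% of members, 2.78% of the grid, 21.4% of the doxycycline and DMSO list and 16.9% of the doxycycline and PMA list. The members' median GC content was 48.4%, between the grid's 40.0% and the 53.8% and 52.0% of the induced lists.

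Some families below were added after the windows were seen, so their share of genes with a member can follow from that choice. These are the PSG, glycophorin, RASA4, CROCC, BOLA2, CKMT1, U3 and opsin groups and the RefSeq ribosomal RNA and tRNA genes. The Fc receptor genes with HSPA6 held 38 members in 4 of 13 genes, with a median of 6.05 fold, and every one of these members had a copy. The KIR and LILR genes, receptors of natural killer and myeloid cells, held 42 members in 9 of 26 genes, at a median of 3.76 fold. In the duplicated group of NAIP on chromosome 5, 30 members lay in 4 of 14 genes, 19 of them in NAIP, a sensor of bacterial proteins, 7 in GTF2H2, a subunit of a transcription and DNA repair factor, and none in the SMN or SERF1 genes of that group. HLA and MIC genes, which present antigen or signal stress, held 11 members in 6 of 46 genes.

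Among placental, germline and red-cell genes, PSG genes held 185 members in 12 of 13 genes, 184 of them with a copy. Without the antisense genes, of which PSG11-AS1 spans much of the locus, the count was 90 members in 10 of 11 genes. The PRAME family, expressed in germ cells and tumours, held 27 members in 12 of 33 genes, with a median of 4.83 fold. X-linked cancer-testis families, such as SPANX, held 30 members in 4 of 128 genes, and 15 of these had a copy. The 3 glycophorin genes, for sialic acid-rich proteins of the red-cell membrane, all held members, 23 in all at a median of 6.71 fold.

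The next duplicated families, of chromosomes 1, 5, 7, 15 and 16, held 42 to 140 members each. NPIP genes and PKD1 pseudogenes held 140 members in 15 of 32 genes, all with a copy, and the RASA4, POLR2J and UPK3BL genes held 135 in 9 of 16. CROCC, for rootletin of the ciliary rootlet, and its copies held 118 members in 4 of 9 genes. The annotated CROCC gene, chr1:16740273-16972964, also spans other genes, among them ENSG00000290851 with 19 members and MST1L with 10. BOLA2, SLX1 and SULT1A genes held 87 members in 8 of 25, with a median of 6.95 fold and a largest value of 20.9. Both ZDHHC11 genes held members, 84 in all. The NBPF and NOTCH2NL genes, expanded in the human lineage, held 58 members in only 3 of 29 genes, and NBPF1 alone took 48. The GOLGA6 and GOLGA8 genes held 44 members in 4 of 47. CKMT1, a mitochondrial creatine kinase, STRC, a protein of inner-ear stereocilia, and CATSPER2, a sperm calcium channel subunit, held 52 members in 6 of 8 genes of that group. SLC35E2 and CDK11 genes, the second for cyclin-dependent kinases, held 42 in 4 of 6, and 21 of these had a copy.

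Genes for structural RNAs held few members. The RefSeq ribosomal RNA genes held 39 members in 12 of 49 genes, with folds from 1.70 to 16.97. The U3 genes held 8 members in 6 of 11 genes, all 8 with a copy. Spliceosomal small nuclear RNA genes held 17 members in 16 of 1950 genes, and RefSeq tRNA genes 13 members in 13 of 443. Where 1.02% of all annotated genes held a member, the families without any, most of them too small for that share to give more than 1 gene, were USP17L (30 genes), ANKRD30, ANKRD20 and POTE (46), LRRC37, ARL17 and KANSL1 (25), keratins (212), keratin-associated proteins (112), cytochrome P450 families CYP2, CYP3 and CYP4 (86), metallothioneins (20), globins (14) and CCL3L and CCL4L chemokines (5). Zinc finger genes held 9 members in 4 of 749 genes, olfactory receptors 10 in 5 of 870, and ribosomal protein genes and their pseudogenes 2 in 1 of 1585.

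Members lay within 5 Mb of centromeres and within 2 Mb of chromosome ends more often than the grid did. Within 5 Mb of a centromere, placed by its arrays of the CENP-B box, lay 623 members, 15.4% (14.3 to 16.6%), against 8.74% of the grid and 8.85% and 7.44% of the induced lists. These were concentrated on chromosome 21 with 157, chromosome 17 with 131, and chromosomes 4 and 16 with 83 each. At a limit of 2 Mb the shares were close, 5.57% of members (4.90 to 6.32%) and 4.80% of the grid. The chromosome 16 satellite cluster was not counted by this measure, as it begins 5.00 kb from an assembly gap of 8.1 Mb and 8.09 Mb from the CENP-B arrays. Within 2 Mb of a chromosome end lay 571 members (14.1%), against 2.80% of the grid, of which 229 were on chromosome 1, 198 on chromosome 14 and 100 on chromosome 5.

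Satellite and telomere sequence was rare among the members but stood well above the grid. At least 20 GGAAT or ATTCC units occurred in 127 members (3.14%) and in 0.0861% of grid windows, and 64 of those members were on chromosome 4, 58 on chromosome 16, 4 on chromosome 22 and 1 on chromosome 10. In the induced lists the shares were 1.80% and 1.04%. At least 10 TTAGGG or CCCTAA units occurred in 5 members (0.124%) and in 0.00511% of grid windows. A CENP-B box was present in 35 members (0.866%), below the 1.73% of the grid.

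Recurrence in the other lists did not enter the choice of members. With doxycycline and DMSO, 1689 members, 41.8% (40.3 to 43.3%), overlapped a window by at least 1 bp, where 0.18% of grid windows did so. With doxycycline and PMA, 1655 did, 41.0%, against 0.204% of the grid. Both induced lists held 1128 members (27.9%, grid 0.0681%), and at least 1 of them held 2216 (54.9%, grid 0.316%). Neither held the remaining 1824. The induced lists were made from the same cell line with the same antibody, so these shares compare libraries and are not a measure of the fusion.

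The DRIP lists were made with another antibody from MCF10A cells without the transgene, and the shares there were of the same order. In WT cells, 1494 members (37.0%, grid 2.93%) recurred with DMSO, 1519 (37.6%, grid 3.5%) after PMA for 2 h and 2076 (51.4%, grid 5.09%) after PMA for 6 h. In KO cells the counts were 1506 (37.3%, grid 3.13%), 1378 (34.1%, grid 3.75%) and 1817 (45.0%, grid 5.27%). The lists after 6 h were also the longest, at 165877 and 169126 windows. Their lowest local background was 3.73 and 4.45 fragments, against 2.77 to 3.04 in the other DRIP lists. All 6 DRIP lists held 806 members (20.0%, grid 0.88%), and none of them held 1345 (33.3%, grid 90.7%). With DMSO, 1127 members recurred in both genotypes, 367 in WT alone and 379 in KO alone. In all, 10 members were in all 3 WT lists and no KO list, and 5 in all 3 KO lists and no WT list. The share of grid windows with these genotype patterns was not counted, so the counts by genotype are a description of the members only.

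As windows of 1 cluster are not independent, the strongest member of each of the 418 clusters was also taken alone. Its share was 30.9% with doxycycline and DMSO, 29.9% with doxycycline and PMA and 27.8% in WT DMSO DRIP. Grid windows that have a further copy themselves recurred in 0.602% and 0.589% for the induced lists and 2.40% for WT DMSO DRIP, well under the members' shares. Members above 5.51 fold recurred in 60.2% and 63.3% in the induced lists and 50.4% in WT DMSO DRIP, and members between 3.41 and 4.12 fold in 26.9%, 25.8% and 29.3%. For members up to 3.41 fold the shares in the induced lists were 41.1% and 35.8%, so recurrence did not follow fold in a straight order.

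Members that recurred in both induced lists were also the ones found most in DRIP. All 6 DRIP lists held 37.6% of the 1128 members in both induced lists, 18.2% of the 1088 in 1 of them and 10.1% of the 1824 in neither. All 8 other lists held 424 members (10.5%, grid 0.0187%), with a median of 5.63 fold and 60 fragments, and 63.4% of these came from 5 clusters. Where a member and an induced window overlapped, the uninduced fold was more often the larger. Its median was 4.61 against 3.98 with doxycycline and DMSO, where the induced fold was the higher for 34.3% of the 1689 members, and 4.83 against 4.02 with PMA, where it was the higher for 29.4% of the 1655. The uninduced list also ran higher as a whole, with a median fold of 4.12 against 3.22 with doxycycline and DMSO and 3.19 with PMA. The difference in the pairs is therefore not particular to the shared windows. Both sides of each pair were called by their own q value, so these pairs are a description.

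Recurrence differed widely between clusters. In the RASA4 cluster, 173 of 203 members recurred with doxycycline and DMSO, 179 with doxycycline and PMA and 159 in WT DMSO DRIP. The chromosome 16 cluster of NPIPB12 gave 110, 111 and 93 of 146, and the IGHG4 cluster 130, 146 and 94 of 196. The chromosome 4 satellite was recovered in every library, with 53 and 44 of 64 members in the induced lists and 56 to 64 in the DRIP lists. The chromosome 16 satellite recurred in 26 of 30 in each induced list but in 6 to 14 in the DRIP lists. The cluster on chromosome 2 at chr2:87397483-87427759 showed the same side, with 31 and 23 of 40 in the induced lists and 7 to 9 in DRIP. The opposite order was seen at NPIPA2, where none of 40 members recurred in an induced list and 16 to 28 recurred in DRIP. The CROCC cluster of 77 had 64 and 66 in the induced lists, and 8 to 48 in DRIP.

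Some clusters were in 1 induced list and hardly in the other. At the start of chromosome 1, the OR4F5 cluster had 70 of 110 members in the doxycycline and DMSO list and 1 in the doxycycline and PMA list. SLC35E2B gave 31 and 5 of 58, NBPF1 gave 33 and 10 of 69 and GUSBP17, a pseudogene of beta-glucuronidase, gave 8 and 0 of 21. The other direction was seen at GOLGA8A with 6 and 30 of 68, GOLGA6L4 with 5 and 21 of 31, GYPB with 3 and 23 of 63, KIR2DL1 with 2 and 18 of 44 and NAIP with 0 and 12 of 19. Of the 118 clusters of at least 5 members, 41 had more in the doxycycline and DMSO list, 36 had more in the doxycycline and PMA list, 8 were equal and 33 had none in either. With 1 library for each condition, PMA and library cannot be told apart.

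Among all windows, a member was overlapped by 26.9% of the doxycycline and DMSO list, 22.5% of the doxycycline and PMA list and 1.00 to 1.43% of each DRIP list. Of the 100 windows with the highest pileup, 85 overlapped a member in the doxycycline and DMSO list, 62 in the doxycycline and PMA list and 93 to 98 in each of the DRIP lists. By fold, 77 and 72 of the top 100 did so in the induced lists, but 15 to 31 in the DRIP lists. The largest fold of both induced lists, 19.2 and 21.4, came from the same place, windows starting at 43277431 and 43277420 on chromosome 17 in CCDC200, where the genes of the spliceosomal RNA U2 form a tandem array. The member there had 13.7 fold and 50 fragments, and 27 and 28 of the 28 members of that cluster recurred in the induced lists. The largest pileups of the induced lists, 1618 and 1346 fragments, lay on the chromosome 16 satellite member of 1824. The tallest window of every DRIP list, from 7297 to 10370 fragments, lay in the ribosomal DNA of chromosome 21 and overlapped a member. In the WT DMSO DRIP list 69 of the 100 tallest windows were on chromosome 21 and 30 on chromosome 4.

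No other list held 839 members (20.8%, grid 90.6%). These were spread over 259 clusters and had a median of 3.76 fold and 18 fragments, lower than the 5.63 fold and 60 fragments of the members in all 8. Some whole loci belonged here. In the UGT2B28 cluster, named for an enzyme that conjugates steroids to glucuronic acid, 33 of 35 members were in no other list, and the window printed above had 5.64 fold and 20 fragments. At TRBV6-6, among T cell receptor beta variable segments, this held for 29 of 38 and at TTC34 for 15 of 21. The largest fold among them, 19.9 at 227 fragments, was in the ribosomal DNA at chr21:8449311-8449811, although most of that cluster recurred. SPANXA1 had 0 of 45 members in either induced list or in WT DMSO DRIP, but 16 and 19 in the WT lists after PMA for 2 h and 6 h. PWRN1, a long non-coding RNA gene of the Prader-Willi region on chromosome 15, held 41 members and no window of either induced list, and 73 windows of WT DMSO DRIP. The PWRN1 values count windows anywhere in the gene, so they do not give how many of its members recurred in DRIP.

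Gene families differed in the same measures. Of the 8 members of the OPN1MW opsin gene none recurred in an induced list. By contrast all 8 U3 members recurred in both, and of the 39 in ribosomal RNA genes 30 and 22 recurred in the induced lists and 28 in all 6 DRIP lists. Of the 135 members in RASA4, POLR2J and UPK3BL genes, 112 and 114 recurred in the induced lists and 101 in WT DMSO DRIP. Of the 185 PSG members, 55 and 66 recurred in the induced lists, where 41.8% and 41.0% of all members did, and 61 were in no DRIP list, where 33.3% of all members were. All 20 members of the bitter taste receptor and proline-rich protein genes had a copy, and 10 and 3 recurred in the induced lists.

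APOBEC3B itself (chr22:38982347-38992804) held 3 members although the transgene was not induced, with folds of 3.32, 3.69 and 2.89, of which 1 overlapped an exon and 1 had a further copy. The induced lists held 5 and 6 windows in the gene. The DRIP lists held 0, 1 and 2 windows there in WT cells with DMSO, PMA for 2 h and PMA for 6 h, and none in the KO lists. The KO cells carry the APOBEC3B deletion that fuses APOBEC3A and APOBEC3B. No window can be called in deleted sequence, so the absence in KO is no measure of R-loops there. The lists do not tell reads of the transgene from those of the resident gene.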

How the data were processed

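The submitters' notes name cutadapt 1.13, STAR 2.6.1d, SAMtools 1.3.1, Picard, bedtools 2.29.2, deepTools 2.5.0.1 and MACS2 2.2.6 on hg38, and the study's methods give an older MACS2. No filter for uniquely mapped reads is named. By the study's methods, PCR duplicates and reads in the DAC exclusion list of regions were removed, so members are what remained after that filter. The grid was not filtered by that exclusion list. Each deposited list gives windows of 500 bp centred on summits, with the authors' pileup (a signal in fragments), fold enrichment (a ratio over local background with a pseudocount of 1) and −log10 q-values and p-values at a q limit of 0.01. Whether starts count from 0 or 1 is not stated, which moves a position by 1 bp. Of 18 samples, 9 have a list, and the 9 inputs were not used alone.

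Members were all windows of the uninduced anti-GFP list. Members and gene lists were chosen with earlier results of these data known, and 13 families were added to the 42 first listed after the windows were seen. Windows overlapped at 1 bp or more, and the counts equalled those of bedtools 2.31.1. Clusters joined windows up to 10 kb apart. Further copies were found by aligning each window to hg38, alternate contigs included, with minimap2 2.31 (preset asm20, up to 50 secondary hits). Genes were from GENCODE 44 and RefSeq. The background was 293720 grid windows without unsequenced bases. Named genes were up to 30 with the most members, the nearest gene of the 10 members with the largest fold or pileup, up to 4 of each family, genes with 10 or more members and no induced window or a window in all 6 DRIP lists, and APOBEC3B. Clusters took the name of the protein-coding gene, or else any gene, with most members, genes without a symbol coming last, and other genes in the text were named after their values were seen. Scripts ran under Python 3.11.15 with matplotlib 3.10.9, pysam 0.24.0, scipy 1.17.1, pandas 2.3.3 and numpy 2.4.6 and were tested on simulated data. No test was run, because each condition has 1 library. Another overlap, gap, identity, q limit and window choice were tried. Some genes and sequences are not reported here.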

Additional observations from a re-analysis of the deposited data

How the results depend on the processing

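No paired analysis was possible because each group has 1 sample. Of 39 alternative settings over 8 results, 35 moved a value beyond its limit and 4 did not. The limit was the counting interval for shares and a fixed ratio for the number of genes. These results are single shares and a count, so a change of direction was not assessed. The share of members in clusters of at least 5 was 90.9% at −log10 q of at least 5, and 83.6% and 92.2% with gaps of 5 and 50 kb. The share near a centromere was 5.57% at 2 Mb, where the grid had 4.80%. The share with a further copy was 79.8% at 95% identity, 89.3% over 50% of the window, 90.8% at −log10 q of at least 5 and 58.9% with 1 window for each cluster, which holds proportionally more isolated windows. Recurrence with doxycycline and DMSO, with doxycycline and PMA, in WT DMSO DRIP and in all 6 DRIP lists was 32.1%, 31.6%, 22.8% and 10.5% at an overlap of 250 bp, 57.5%, 56.7%, 60.3% and 41.3% with a gap of up to 1 kb, 53.4%, 53.0%, 43.1% and 24.8% for members at −log10 q of at least 5, and 30.9%, 29.9%, 27.8% and 13.2% with 1 window for each cluster. With −log10 q of at least 5 in both lists it was 40.1% with doxycycline and DMSO and 22.5% in all 6 DRIP lists. Among the strongest 4000 windows by fold of each list it was 36.9% and 33.1% in the induced lists. The number of genes holding at least 5 members was 103 at −log10 q of at least 5. Settings chosen after seeing the data were 98% identity, which gave 65.4% with a copy, assembled chromosomes only, which gave 80.6%, and a gap of up to 10 kb, which gave 74.6%, 73.9%, 84.6% and 76.7% recurrence, where grid windows gave 1.78%, 1.57%, 30.7% and 18.6%.

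Values rest on 1 library for each condition with no stated depth, and windows of a cluster share their sequence. Reads of identical copies can be placed at either copy, so the copy that a fragment came from cannot be told. The search for copies finds short tandem satellites poorly, and the share of members with a copy counts them as uncopied.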
